A study of Mus musculus with 22 samples.

Results

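The genes described here mark cells that lie next to an epithelium: mesenchyme (13 genes), smooth muscle (9), endothelium (7), red cells (4), immune cells (8) and nerve (1). They were chosen as a fixed list of 42 entries, and each gene was read from the probe set of highest mean among those that the platform's annotation gives to that gene alone. Such a probe set was found for 39 of the 42, and 31 of these passed the filter on dim probe sets and were tested among 19050 genes. Pdgfra, Fbn1 and the entry written Cdh5_none had no such probe set and have no values here. For the other 8 members, values are given without a test.

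The arrays measured RNA from the epithelium of the urogenital sinus (UGS) of C57BL/6J mouse fetuses at embryonic day E16.75. The controls were littermates without Cre that carried 1 floxed Sox9 allele (Shh+/+; Sox9+/fl), so all 4 groups had at least 1 floxed copy of Sox9. The knockouts had both Sox9 copies floxed and Cre at 1 of their Shh alleles (ShhCre/+; Sox9fl/fl), so a difference between genotypes cannot be assigned to the loss of Sox9 or to the changed Shh allele. Males gave 6 control and 6 knockout arrays, and females 5 of each. Before RNA was extracted, the tissue was treated with trypsin and collagenase, the mesenchyme was taken off under a microscope, and the epithelium of bladder and urethra was cut away. Replicates are labelled as biological, without saying if an array held 1 fetus or pooled fetuses, and each p-value measures the spread between these arrays.

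The UGS is a tube of epithelium in a sheath of mesenchyme. In male fetuses, androgen acts on that mesenchyme, which signals to the epithelium, and prostatic buds grow out of it. The sheath also holds smooth muscle, blood vessels, macrophages and nerve fibres, and genes of these cells are used to judge how far an epithelial preparation also holds RNA of its surroundings. In bulk RNA, fewer cells of a type and less RNA per cell cannot be told apart, and epithelial cells may themselves transcribe some of these genes.

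Values are log2 signals as deposited, from 1.59 to 14.23 over all probe sets, with array medians of 5.10 to 5.27 over transcript clusters. Sox9, the deleted gene, fell by 1.07 in male knockouts and by 1.00 in female knockouts (limma with Benjamini-Hochberg adjustment over all genes, adjusted p = 1.04e-07 and 2.28e-06), and no array went against its genotype label. Shh, which carries Cre in the knockouts, differed by -0.45 in males and by -0.56 in females (limma adjusted p = 0.00874 and 0.0128). The labelled tissue was checked on 24 epithelial markers such as Epcam, Cdh1 and Krt5, all of which lay above the median of every array. Of the 39 members, 27 also lay above the median of their array on all 22 arrays, 4 did so on 7 to 14 arrays, and 8 on at most 2. Among the last were 4 of the 6 endothelium members and 1 of the 8 immune members: Kdr and Pecam1 passed the median on 1 array each, and Tek, Emcn and the pan-leukocyte gene Ptprc on 0. The other 2 endothelium members, Tie1 and Esam, and the other 7 immune members passed it on all 22 arrays, and of the 4 red cell members Slc4a1 did. The 8 dim members also included Prrx1 and Postn (1 array each) and Tcf21 (2 arrays).

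Some arrays stood apart before any group was compared. Male control 6 was high in smooth muscle, mesenchyme and endothelium members, male knockout 5 was high in a few smooth muscle members, and male knockout 3 was high by less in several lineages. To set the arrays side by side, each gene's mean over the 22 arrays was subtracted, and the deviations were averaged over the members of a lineage. This mean deviation was 1.00 for smooth muscle in male control 6, against -0.17 to 0.22 in the other 21 arrays. For mesenchyme it was 0.72, against -0.23 to 0.19, and for endothelium 0.48, against -0.14 to 0.10. For red cells it was -0.03, inside the range of the others, and for immune cells -0.14, the lowest of the 22. The means of the smooth muscle, mesenchyme and endothelium members were thus high together on that array, though single members such as Smtn and Fn1 were not. The means of the red cell and immune members were not high. For 19 immune genes outside the members, the mean deviation on male control 6 was 0.01, rank 10 of the 22 arrays.

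**Figure D1:**
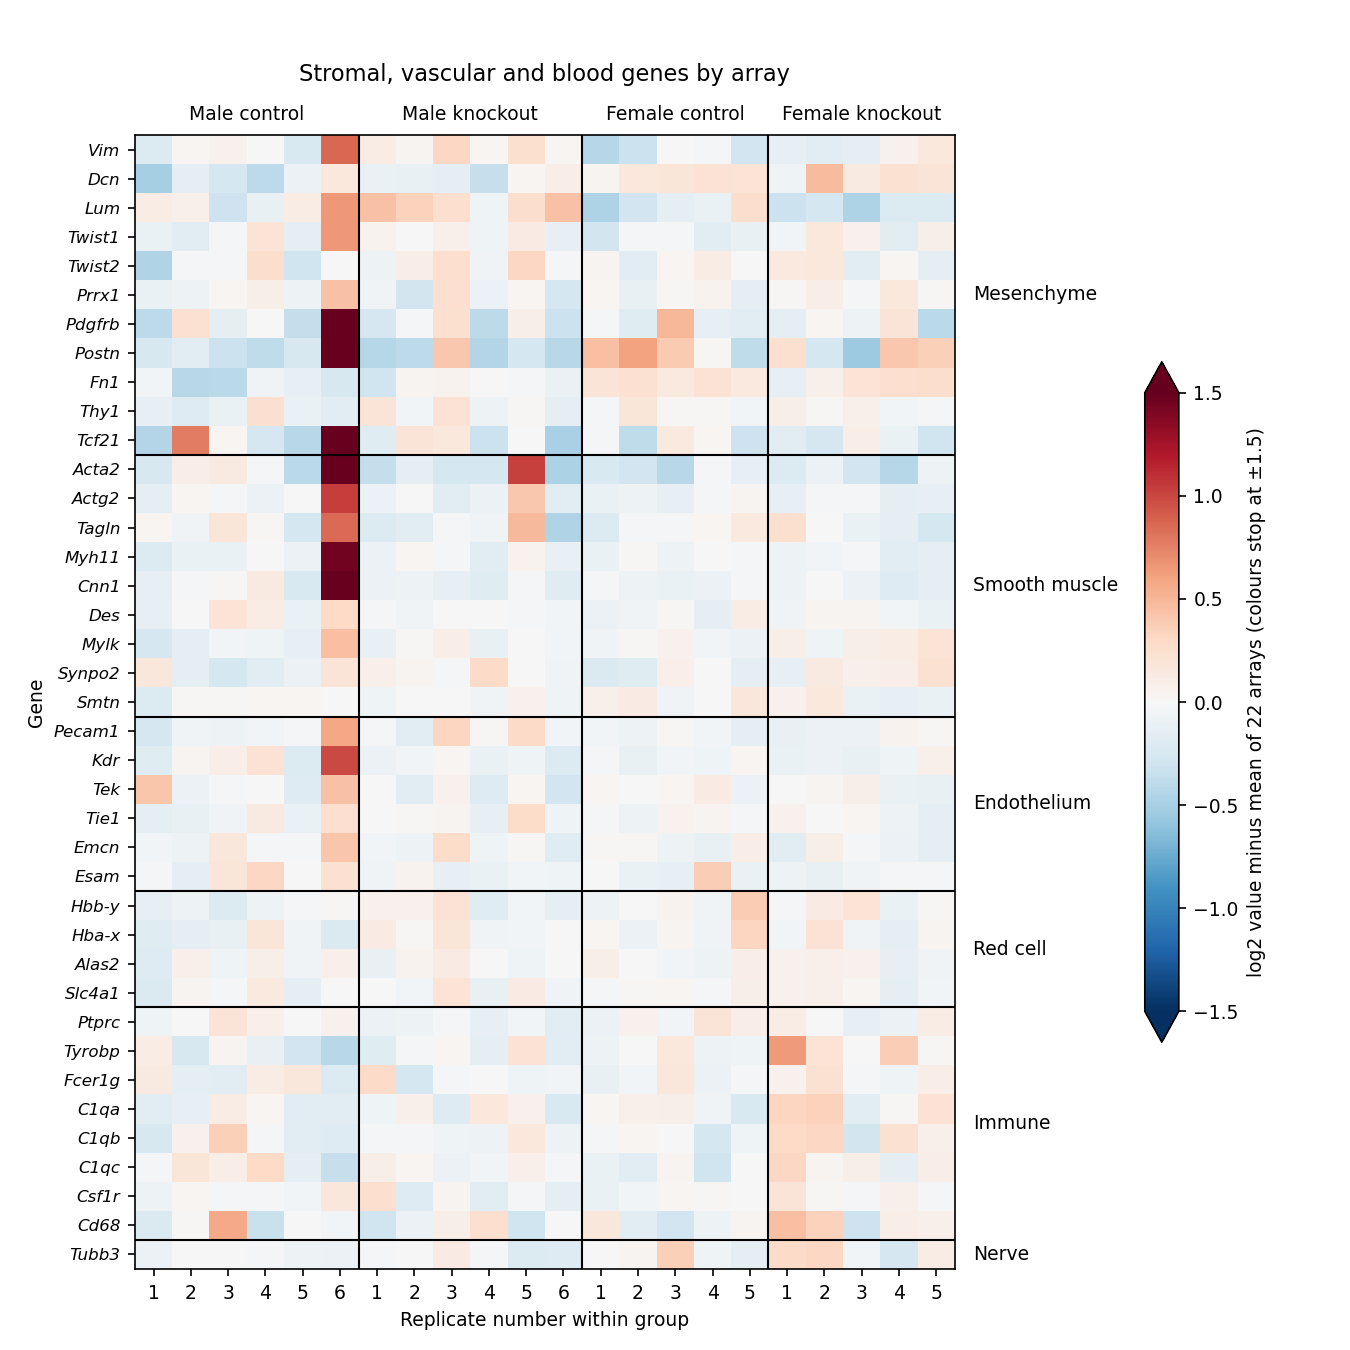
Each row is 1 of the 39 genes and each column 1 array, ordered by group and replicate number; colour gives the log2 value minus the gene's mean over the 22 arrays, with colours stopping at 1.5 either way. Male control 6 is the dark column through mesenchyme, smooth muscle and endothelium, and male knockout 5 is high in Acta2, Actg2 and Tagln.

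Smooth muscle genes set male control 6 apart most. Many genes of the smooth muscle contractile apparatus are known targets of serum response factor, which acts with its coactivator myocardin. Serum response factor binds a short element, the CArG box, in their promoters. The 250 bases before the transcription start are shown for Acta2, which encodes smooth muscle alpha-actin and had the largest difference of the 39 members on that array, and for Cnn1, which encodes the actin-binding protein calponin and was the smooth muscle member with the next largest. The sequences are from RefSeq on GRCm38.p6, at chr19:34255374-34255623 on the minus strand for Acta2 and chr9:22099003-22099252 on the plus strand for Cnn1, 5′ to 3′. Capitals mark CArG-like matches: CC, a core of A and T letters in which 1 letter may differ, and GG. The element reads alike on both strands, so both were searched, and no other motif was searched.
Acta2: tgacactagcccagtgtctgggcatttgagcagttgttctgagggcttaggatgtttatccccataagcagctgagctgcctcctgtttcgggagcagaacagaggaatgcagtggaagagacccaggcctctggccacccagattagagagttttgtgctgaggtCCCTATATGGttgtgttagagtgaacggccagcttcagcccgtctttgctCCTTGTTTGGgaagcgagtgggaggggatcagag
Cnn1: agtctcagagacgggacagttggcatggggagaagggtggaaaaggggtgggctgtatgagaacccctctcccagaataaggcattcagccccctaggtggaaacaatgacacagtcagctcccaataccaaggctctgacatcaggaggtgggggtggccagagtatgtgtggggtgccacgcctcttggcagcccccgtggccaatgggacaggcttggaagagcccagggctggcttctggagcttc

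The Acta2 window held 2 matches, CCCTATATGG at 84 to 75 bases and CCTTGTTTGG at 34 to 25 bases before the start, and the Cnn1 window held none. Of 32851 windows in the RefSeq table, 8.59% held at least 1 match and 0.670% at least 2. A window was found for 27 members, of which Acta2, Kdr, Ptprc and Fcer1g held a match. Of the 9 smooth muscle members 6 had a window, and Acta2 was the 1 with a match. These are matches of letters, and elements outside the windows were not looked for.

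Acta2 read 5.97, 6.30, 6.34, 6.18 and 5.79 in male controls 1 to 5 and 9.27 in male control 6. That array was 3.16 above the mean of the other male controls (6.12 ± 0.23, SD, n = 5), which is 8.91-fold, and the difference ranked 2 among the 19050 genes tested. Cnn1 read 5.53, 5.64, 5.68, 5.79 and 5.42 in male controls 1 to 5 and 7.32 in male control 6. Neither gene's value on male control 6 was reached by any other array. Myh11, the smooth muscle myosin heavy chain, read 5.61 to 5.81 in male controls 1 to 5 and 7.27 in male control 6, a difference of 1.55 at rank 17. Actg2, the gamma-actin of visceral smooth muscle, was 1.08 above the mean of the other male controls, and Tagln, the actin-associated protein transgelin, 0.87.

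The rest of the smooth muscle members moved less on that array. Mylk, the kinase that phosphorylates myosin light chain, was 0.57 above the other male controls. The actin-binding protein gene Synpo2 was 0.29 above, the intermediate filament gene Des 0.28, and the cytoskeletal gene Smtn 0.01. Of the 9 members, 8 were highest in male control 6 among the male controls and 7 were highest there among all 22 arrays. Over the 19050 genes tested, 17.9% were highest of the male controls in that array, and 1.63% were at least 0.5 above the mean of the others. Of the smooth muscle members, 6 of 9 passed that difference. Smooth muscle genes outside the members showed the same kind of difference: of 13 measured, 9 were highest in male control 6, with Myl9 at 8.62 against 6.74 ± 0.12 and Pgm5 at 7.51 against 6.36 ± 0.12 (n = 5 each). These companion genes, like the others named for this array, were picked out after their values were seen.

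Mesenchyme members were mostly higher on male control 6, by up to 2.28. Pdgfrb, the PDGF receptor of pericytes and fibroblasts, read 5.43, 6.05, 5.69, 5.82 and 5.46 in male controls 1 to 5 and 7.58 in male control 6. Tcf21, a basic helix-loop-helix factor of visceral mesenchyme, read 4.48, 5.69, 4.95, 4.67 and 4.50 in those arrays and 7.14 in male control 6. Postn, a matricellular protein, read 4.17 to 4.38 in male controls 1 to 5 and 6.14 in male control 6. All 3 lay above every other array there, and outside male control 6 Postn passed the array median on 0 arrays and Tcf21 on 1.

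Smaller differences on the same array were 0.93 for Vim, the intermediate filament of mesenchymal cells, 0.70 for Twist1 and 0.67 for the matrix proteoglycan Lum. The homeobox gene Prrx1 was 0.47 above the other male controls and the proteoglycan gene Dcn 0.43. Twist2 was 0.10 above, the matrix glycoprotein gene Fn1 was at -0.03 and the surface glycoprotein gene Thy1 at -0.11. Of the 11 mesenchyme members with values, 8 were highest of the male controls in male control 6, and none was lowest. Of the 8 members tested 5 were highest there, against 17.9% of all genes tested. Among 18 other mesenchyme genes 14 were highest there. The largest of these differences was in Ogn, a small leucine-rich proteoglycan, at 7.59 against 3.75 ± 0.29, followed by Bgn, another proteoglycan, at 8.61 against 6.22 ± 0.33 (n = 5 each).

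Endothelium members were higher on male control 6 as well, mostly from a low level. Kdr, the main VEGF receptor of endothelium, read 4.22, 4.45, 4.50, 4.61 and 4.20 in male controls 1 to 5 and 5.39 in male control 6. Pecam1, an adhesion molecule of endothelial junctions, read 4.51 to 4.74 and then 5.34. Male control 6 was the 1 array on which either gene passed the array median. Tek, the angiopoietin receptor, was 0.42 above the other male controls, the sialomucin gene Emcn 0.41, the receptor gene Tie1 0.31 and the adhesion molecule gene Esam 0.16. Of the 6 members, 5 were highest of the male controls there, but only 2 of the 6 passed the filter on dim probe sets. Of these 2, 1 was highest and 0 were at least 0.5 above the mean of the others. Among 18 further endothelial genes, 7 were highest there, led by Cdh5, the cadherin of endothelial junctions, at 7.08 against 5.19 ± 0.25 (n = 5). Of the 14 of these that were tested, 5 were highest. The share of 17.9% over all genes covers only genes that passed the filter, so it is no background for the dim genes.

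**Figure D2:**
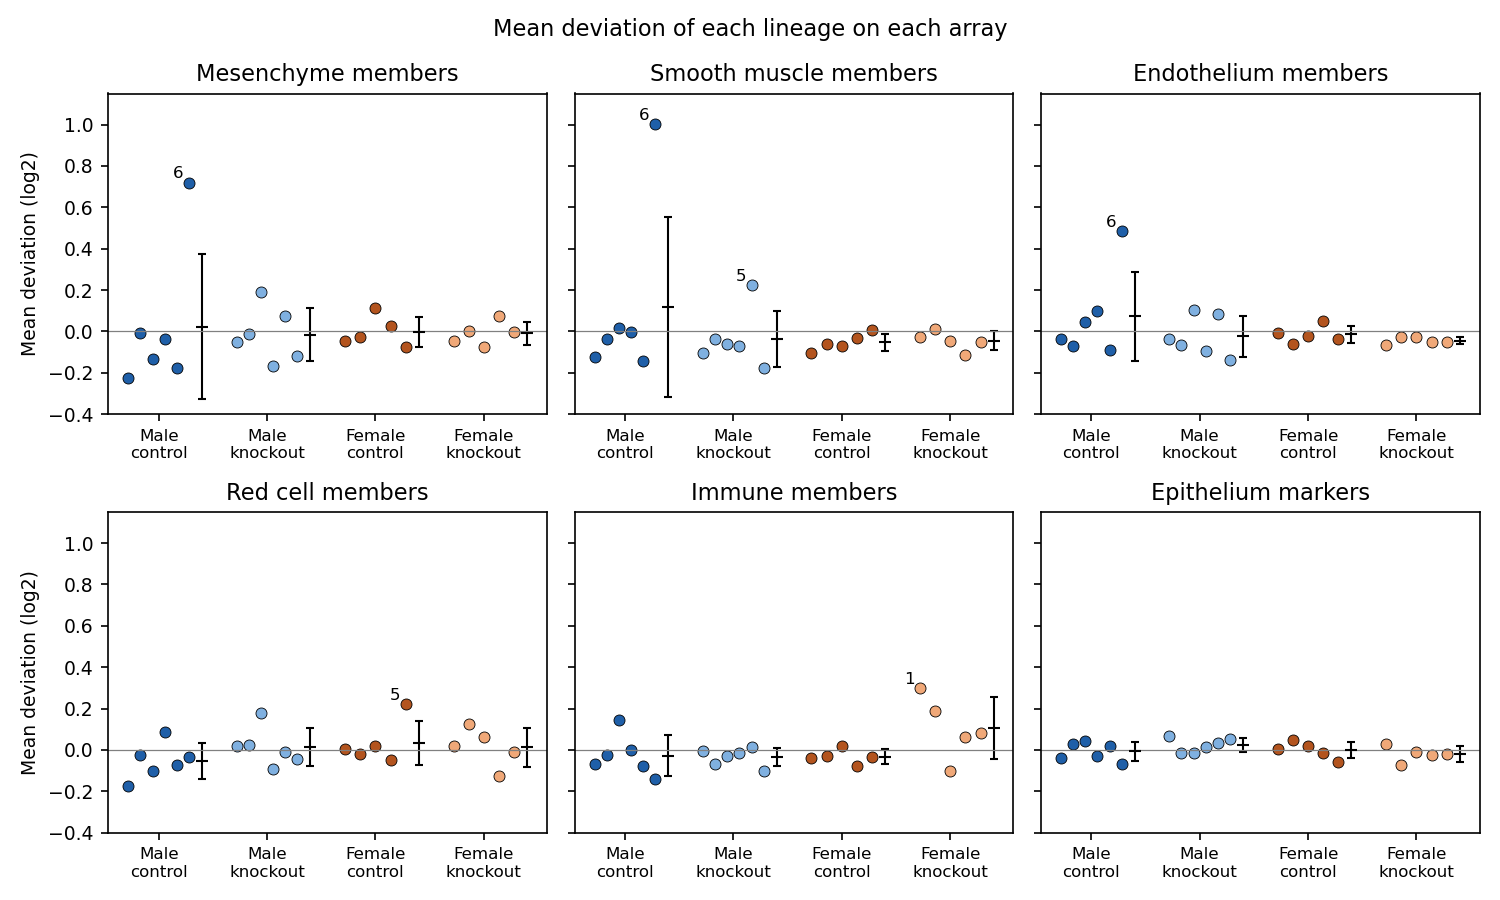
Each panel gives, for 1 lineage, the mean over its genes of the log2 value minus the gene's mean over the 22 arrays, with 1 point per array in replicate order and a bar for the group mean ± SD; replicate numbers are written beside points above 0.2. Male control 6 stands at 0.72, 1.00 and 0.48 for mesenchyme, smooth muscle and endothelium and at -0.07 for epithelial markers.

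Red cell members stayed close to the other male controls on male control 6. Of these genes, the embryonic globin Hbb-y was 0.11 above the mean of the others and the embryonic globin Hba-x stood at -0.15. Alas2, which starts heme synthesis in red cells, was 0.11 above, and Slc4a1, the anion exchanger of the red cell membrane, 0.03. Of the 4 red cell members 1 was highest of the male controls and 1 lowest, and among 13 other red cell genes 0 were highest and 5 lowest. The adult globin genes lie on probe sets that list several genes and were not used here, so the red cell members are embryonic globins, a heme synthesis enzyme and a membrane transporter.

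Of the 8 immune members, 1 was highest in male control 6 among the male controls and 3 were lowest. Among 19 other immune genes 4 were highest and 4 lowest, with differences from -0.46 to 0.56 and a median of -0.0005. Csf1r, the receptor for the macrophage growth factor CSF1, was 0.20 above the other male controls. The adaptor gene Tyrobp stood at -0.32, the Fc receptor chain gene Fcer1g at -0.23 and the complement gene C1qc at -0.44, each the lowest male control. Tubb3, the neuronal beta-tubulin and the 1 nerve member, stood at -0.05. Over all tested genes, 21.0% were lowest of the male controls in that array. Epithelial markers were slightly lower there: of 24, 0 were highest and 10 lowest, with differences from -0.26 to 0.12. Their mean deviation was -0.067 on male control 6, and female knockout 2 was lower still, at -0.072. The part of carried-over tissue in the differences on male control 6 was not tested.

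**Figure D3:**
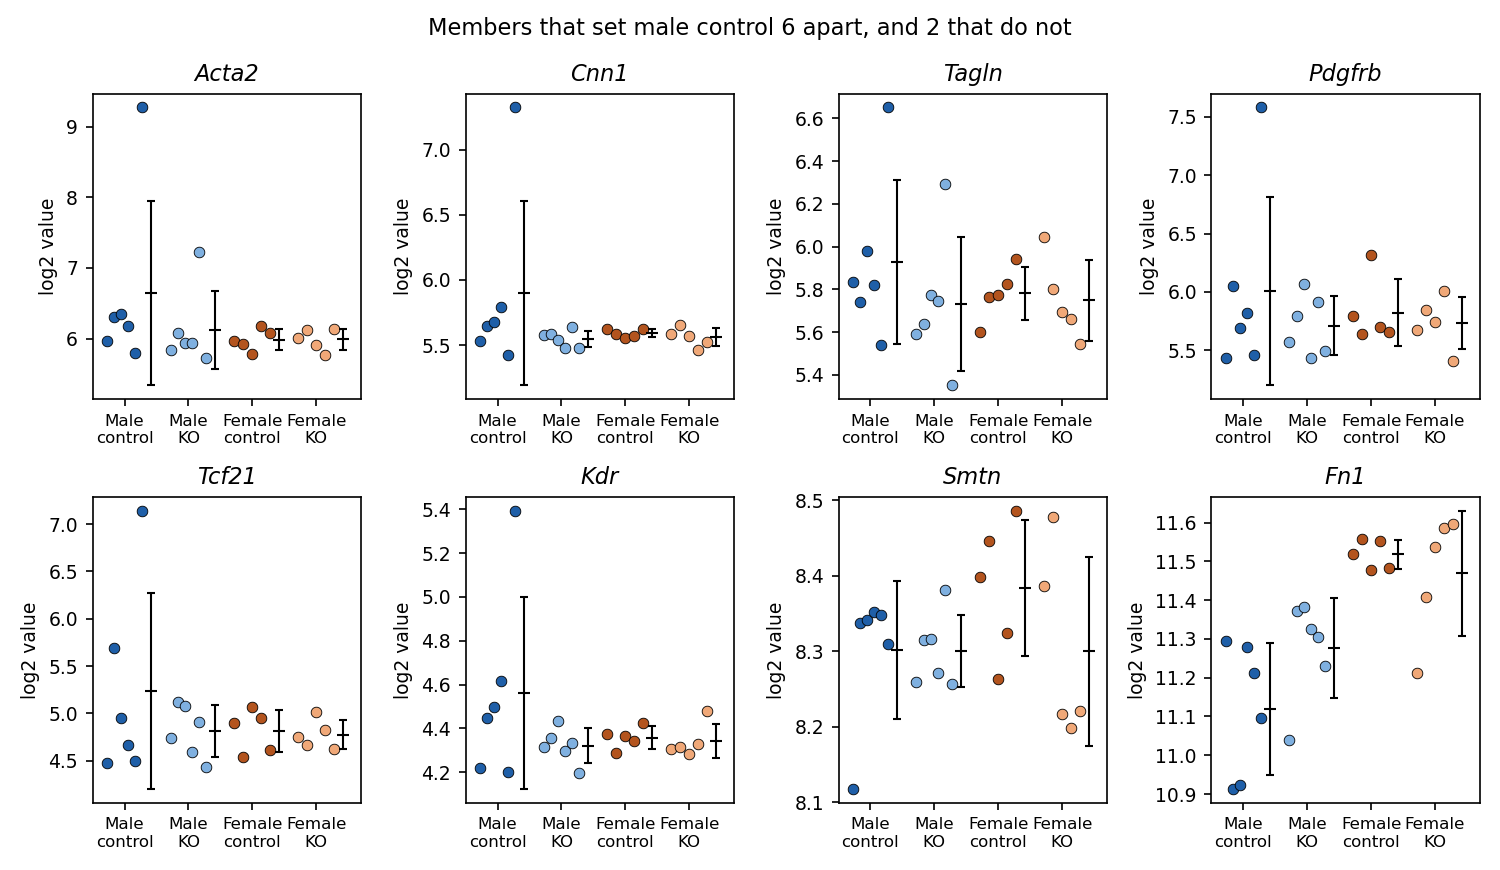
Log2 values of 6 genes that were high on male control 6 and of Smtn and Fn1, which were not, with 1 point per array in replicate order in each group and a bar for the group mean ± SD (n = 6, 6, 5 and 5). Acta2 reached 9.27 on male control 6 and 7.22 on male knockout 5, and each panel has its own scale.

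Male knockout 5 differed in fewer genes. Acta2 read 7.22 there, against 5.84, 6.07, 5.93, 5.94 and 5.72 in male knockouts 1, 2, 3, 4 and 6. The difference of 1.32 from their mean ranked 3 among all genes tested. Tagln was 0.674 and Actg2 0.498 above the other male knockouts, while Cnn1 was 0.10 and Myh11 0.12 above. Male knockout 5 therefore shared the high actins with male control 6, without a like difference in calponin or myosin heavy chain.

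Of the 31 members tested, 11 were highest of the male knockouts in male knockout 5, against 13.8% of all genes, and 2 were at least 0.5 above the mean of the others, against 0.388%. Tie1 was 0.30 above. Of the 8 immune members 2 were highest there, Tyrobp at 0.31 above and C1qb, which read 6.95 against 6.72 to 6.77, while Cd68 stood at -0.28, and the immune median was 0.07. Of 13 other smooth muscle genes 5 were highest there and 2 lowest, with differences from -0.19 to 0.37. Of 18 other mesenchyme genes 5 were highest there, with the elastic fibre gene Fbln5 at 7.07 against 5.77 ± 0.25 and Bgn at 7.23 against 6.07 ± 0.32 (n = 5 each). Of 18 other endothelial genes 7 were highest there, with Cdh5 at 5.82 against 5.14 ± 0.26 and the tight junction gene Cldn5 at 6.75 against 6.12 ± 0.17 (n = 5 each). Among tested genes outside the members, 5 of 11 smooth muscle, 2 of 12 mesenchyme and 5 of 14 endothelial genes were highest there. The share of 13.8% over all genes covers only genes that passed the filter. The companion genes named for this array too were picked out after their values were seen.

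Male knockout 3 was high by smaller amounts over more members. Of 39 members 17 were highest of the male knockouts there, 10 of them among the 31 tested, where 18.0% of all genes were highest. These were 6 of 11 mesenchyme, 4 of 6 endothelium, all 4 red cell, and 1 each of the smooth muscle, immune and nerve members. The 4 endothelium members had not passed the filter on dim probe sets, and of the 2 tested 0 were highest. None of the tested members was 0.5 or more above the mean of the others. Its mean deviation was 0.19 for mesenchyme, 0.10 for endothelium and 0.18 for red cells, each rank 2 of the 22 arrays. Male knockout 3 also had the highest array median over transcript clusters, 5.27, against 5.10 to 5.23 in the other male knockouts. The part of an array-wide shift in these differences was not tested.

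The spread between arrays of 1 group followed these arrays. The median within-group SD was 0.263 over the 9 smooth muscle members, against 0.113 over all genes tested, and it was 0.0932 without male control 6. Acta2 had a within-group SD of 0.753, rank 15 among all genes, and 0.336 without that array. Cnn1 went from 0.377 to 0.0849 and Myh11 from 0.341 to 0.0697. For mesenchyme the median went from 0.189 to 0.154 and for endothelium from 0.156 to 0.119. It hardly moved for red cells (0.119 and 0.120) and immune cells (0.160 and 0.152). Without male control 6 the median over all genes was 0.112. The median of the smooth muscle members lay below it, and those of the mesenchyme, endothelium, red cell and immune members above it. Single smooth muscle members such as Acta2 stayed above it. The medians of the mesenchyme, endothelium and immune members include dim genes, which the median over all genes tested leaves out.

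The comparison of knockouts with controls asked whether the genes of the surrounding tissue differed with genotype. None of the 31 members was called in male knockouts, in female knockouts or in the average of the sexes (limma with Benjamini-Hochberg adjustment, threshold 0.05). Among all genes, 38 of 19050 (0.199%) were called in males, 6 (0.0315%) in females and 47 (0.247%) in the average, so a count of 0 among 31 members lies near the background. At an unadjusted p under 0.05 the members numbered 0 in males, 1 in females (Tyrobp) and 2 in the average (Tyrobp and Synpo2), against 1195, 1041 and 1369 of all genes. The arrays of both genotypes overlapped for all 31 members in each sex, while they did not for 0.420% of all genes in males and 1.39% in females. The members' median difference was 0.01 in males and 0.00 in females, and that of all genes was 0.01 in both. The difference between the male and the female genotype effect was called for 0 members, with 0 at an unadjusted p under 0.05, against 1 of all genes called (0.00525%).

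In males the largest differences were in Acta2 and Cnn1, none of them called, and they rested on male control 6. Acta2 was 6.64 ± 1.30 (SD, n = 6) in male controls and 6.12 ± 0.55 (n = 6) in male knockouts, a log2 difference of -0.52 (SE 0.39, limma adjusted p = 0.893). Without male control 6 the difference was 0.01. For Cnn1 the difference was -0.35 with that array and -0.07 without it, and for Myh11 -0.21 and 0.05. The mesenchyme gene Pdgfrb went from -0.29 to 0.02. Over the 9 smooth muscle members the median was -0.15, with 7 differences below 0, and without male control 6 it was 0.01, with 3 below 0. The mesenchyme median was 0.11 and became 0.17, with 2 and then 0 of 8 below 0. The 12 other mesenchyme genes tested lay the other way, with a median of -0.16 and 11 below 0 (3 at an unadjusted p under 0.05, none called), and without male control 6 a median of -0.06 and 9 below 0. The mean deviation over all 11 mesenchyme members, dim ones included, differed by -0.04, and by 0.10 without male control 6. The 11 other smooth muscle genes had a median of -0.09, with 10 below 0 (2 at an unadjusted p under 0.05, none called). Without male control 6 their median was -0.04, with 9 below 0. Leaving out male knockout 5 moved Acta2 the other way, to -0.74, and leaving out both arrays gave -0.21.

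**Figure D4:**
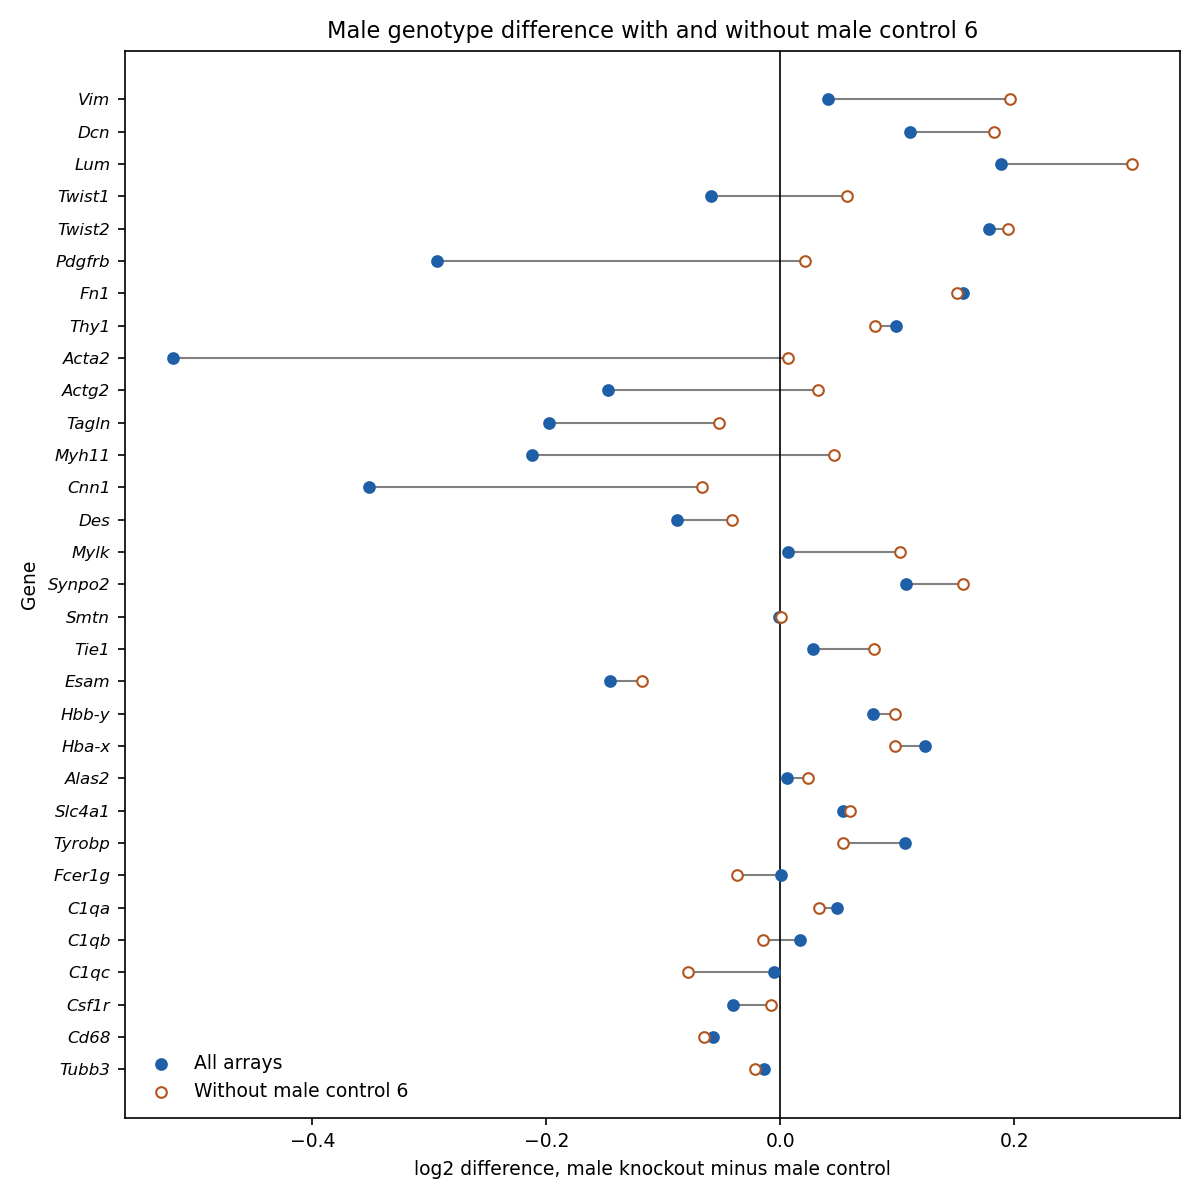
Male knockout minus male control on the log2 scale for the 31 tested genes, from all arrays (filled points) and without male control 6 (open points). Acta2 moves from -0.52 to 0.01 and Pdgfrb from -0.29 to 0.02, while red cell and immune genes move little.

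In females, where no array stood apart in smooth muscle, these genes were close to level. Acta2 read 5.97, 5.92, 5.78, 6.18 and 6.07 in female controls and 6.00, 6.12, 5.91, 5.77 and 6.13 in female knockouts. The groups overlapped throughout, and the difference was 0.00 (SE 0.43, limma adjusted p = 1). The smooth muscle median was -0.03, with 5 of 9 differences below 0, and the mesenchyme median was 0.00, with 4 of 8. The SE of 0.43 comes from the spread shared over all groups, male control 6 included. The largest difference among the smooth muscle members was in Synpo2, at 0.17 (SE 0.09, limma adjusted p = 0.919).

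Endothelium and red cell members showed little difference by genotype. Esam was 5.73 ± 0.17 in male controls and 5.58 ± 0.06 in male knockouts (n = 6 each), a difference of -0.15 (SE 0.08, limma adjusted p = 0.83), and Tie1 differed by 0.03. In females the differences were -0.07 for Esam and -0.02 for Tie1. Hba-x was the red cell member with the largest difference, 0.12 in males (SE 0.07, limma adjusted p = 0.869) and -0.04 in females. Of the 4 red cell members, all were above 0 in males and all below 0 in females, at -0.04 to 0.12. In male knockout 3 all 4 were the highest of their group, and without that array the male median went from 0.07 to 0.03, with 1 of 4 below 0. Female control 5 was highest of all arrays in Hbb-y, at 5.57, and in Hba-x, at 5.47.

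Immune members were above 0 in all 7 differences between female knockouts and female controls, none of them called. The median was 0.18, against 0.01 over all genes and 0.00 for the same members in males. Tyrobp, the adaptor of myeloid receptors, read 6.35, 6.43, 6.58, 6.35 and 6.36 in female controls and 7.06, 6.64, 6.43, 6.80 and 6.45 in female knockouts. The groups overlapped, and the difference was 0.26 (SE 0.11, limma adjusted p = 0.88). C1qb, a chain of the complement protein made by macrophages, read 6.77, 6.82, 6.80, 6.53 and 6.73 in female controls and 7.09, 7.11, 6.52, 7.02 and 6.87 in female knockouts. Its difference was 0.19 (SE 0.11), with female knockout 3 at the level of the lowest control.

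The other complement chains, C1qa and C1qc, differed by 0.16 and 0.18, and the lysosomal gene Cd68 by 0.19. The values of female knockouts 1 and 2 led these differences: the immune mean deviation was 0.30 and 0.19 on those arrays, 0.06 and 0.08 on female knockouts 4 and 5, and -0.10 on female knockout 3. In the 5 female controls it ran from -0.08 to 0.02. Of the 7 immune members tested 4 were highest of their group in female knockout 1, where 25.3% of all genes were. The same members gave that array the highest immune mean deviation of the 22, so this count is no separate evidence. Of 14 other immune genes tested, 11 were above 0 in the same comparison, with a median of 0.03, and 0 were called. Leaving out 1 array at a time moved the difference of the immune mean deviation between 0.09 and 0.19.

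The comparison of the sexes asked whether the genes of the surrounding tissue differ between male and female epithelium. Over all genes, 1322 (6.94%) were called in controls and 1369 (7.19%) in knockouts. Of the 31 members, 2 were called in controls, both lower in males (Dcn and Fn1), and 1 in knockouts, higher in males (Lum), so the shares of the members were near those of all genes. All 3 encode proteins of the extracellular matrix. At an unadjusted p under 0.05 the members numbered 3 in controls and 4 in knockouts, against 3632 and 3271 of all genes. The members' median difference was 0.02 in controls and -0.01 in knockouts, and that of all genes was -0.01 in both.

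Fn1, which encodes fibronectin, read 11.29, 10.91, 10.92, 11.28, 11.21 and 11.10 in male controls and 11.52, 11.56, 11.48, 11.55 and 11.48 in female controls. Every male control lay below every female control, as in 5.64% of all genes in either direction. The mean was 11.12 ± 0.17 (n = 6) in males and 11.52 ± 0.04 (n = 5) in females, a difference of -0.40 (SE 0.08, limma adjusted p = 0.0021, two-sided exact permutation p = 0.00433 over 462 regroupings). Male control 6 was not high in this gene, and without it the difference was -0.39. In knockouts the difference was -0.19 (SE 0.08, limma adjusted p = 0.188), and the male minus female genotype effect of 0.21 was not called.

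Dcn, which encodes the collagen-binding proteoglycan decorin, read 9.38, 9.74, 9.60, 9.48, 9.79 and 10.03 in male controls and 9.91, 10.03, 10.06, 10.09 and 10.08 in female controls. Male control 6 was the highest male control and the 1 that overlapped the females. The difference was -0.36 (SE 0.10, limma adjusted p = 0.0262, two-sided exact permutation p = 0.00866), and without male control 6 it was -0.44. The call was lost without male control 1, 3 or 4 or without female control 2, 3, 4 or 5, where the difference lay between -0.37 and -0.31, and with array medians set equal (-0.33). In knockouts the difference was -0.28 (SE 0.10, limma adjusted p = 0.0997). It was called without female knockout 1 (-0.35).

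Lum, which encodes the related proteoglycan lumican, ran the other way. It read 6.85, 6.75, 6.66, 6.35, 6.67 and 6.85 in male knockouts and 6.09, 6.15, 5.95, 6.20 and 6.21 in female knockouts. No male knockout overlapped a female knockout, as in 5.82% of all genes in either direction. The difference was 0.57 (SE 0.13, limma adjusted p = 0.00743, two-sided exact permutation p = 0.00433 over 462 regroupings), a 1.48-fold higher level in males. In controls it was 0.23 (SE 0.13, limma adjusted p = 0.364) and, without male control 6, which had the highest value of 7.06, it was 0.12. The male minus female genotype effect for Lum was 0.34 and was not called.

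**Figure D5:**
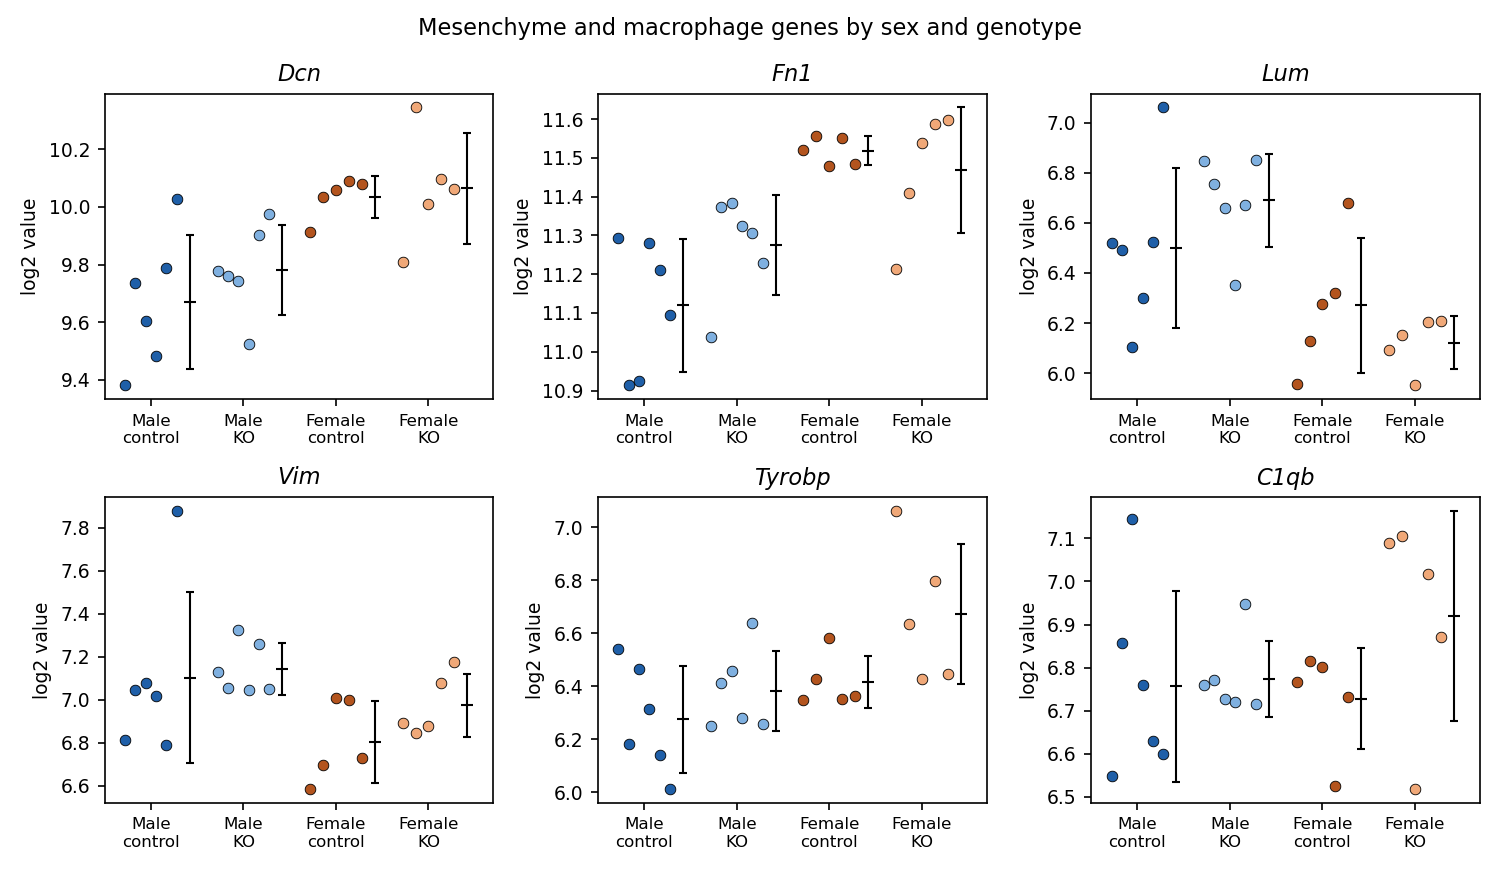
Log2 values of Dcn, Fn1, Lum, Vim, Tyrobp and C1qb on each array by sex and genotype, with 1 point per array in replicate order and a bar for the group mean ± SD (n = 6, 6, 5 and 5). Dcn and Fn1 are lower in male than in female controls, with Dcn's call lost under some alternatives, Lum is higher in male than in female knockouts, and each panel has its own scale.

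No member of the other lineages was called between the sexes with all arrays in the fit. The smooth muscle median in controls was 0.15 higher in males with male control 6 and 0.00 without it. Tyrobp was 0.29 lower on the log2 scale in male than in female knockouts (-0.29, SE 0.11, limma adjusted p = 0.116). It was called when male control 6 and male knockout 5 were both left out (-0.34). All 7 immune members were below 0 in the knockout comparison, with a median of -0.15, and 5 of 7 were above 0 in the control comparison, with a median of 0.02. All 4 red cell members were below 0 in controls, with a median of -0.09.

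Of 67 tested genes of the same lineages outside the members, 4 were called between the sexes in controls (3 higher and 1 lower in males) and 5 in knockouts (3 higher and 2 lower), where the shares over all genes were 6.94% and 7.19%. None of the 67 was called in a genotype comparison (limma), with 5 in males and 1 in females at an unadjusted p under 0.05, against 1195 and 1041 of all 19050 genes. Osr1, a transcription factor of urogenital mesenchyme, was 10.77 ± 0.26 in male controls (n = 6) and 9.93 ± 0.22 in female controls (n = 5), a difference of 0.84 (SE 0.11, limma adjusted p = 1.12e-05). It differed by 0.84 in knockouts too. Mrc1, the mannose receptor of macrophages, was 0.38 higher in male controls and 0.43 higher in male knockouts. The others called in controls were the nerve list's Th, tyrosine hydroxylase, at 0.48 and the LIM homeobox gene Isl1 at -0.23. The others called in knockouts were Th at 0.31, Isl1 at -0.37 and the chemokine gene Cxcl12 at -0.47. Of the 24 epithelial markers, 2 were called in controls, both lower in males (the cadherin gene Cdh3 at -0.24 and the keratin gene Krt18 at -0.28), and 7 in knockouts, 4 higher and 3 lower. The shares over all genes were 6.94% and 7.19%.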

How the data were processed

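Log2 values of 72688 probe sets on 22 Affymetrix arrays were used as deposited. The log2 scale was read from the values, and the normalization is not given in the sources used here. Probe sets with 1 gene symbol (30604; 2146 had several) were kept if above the array's median over transcript clusters on at least 5 arrays, and the probe set of highest mean stood for each gene (19050 genes). Without the filter 30102 genes had a value. The members and all gene lists were chosen with earlier results of these data known, so nothing here is independent of them. Named genes are all members with a probe set, Sox9, Shh, and companion genes called in a comparison. The epithelial markers called between knockout sexes were counted and not named for that comparison. Other companion genes named are epithelial examples and those said to be picked after their values were seen. The companion lists hold 20 mesenchyme, 15 smooth muscle, 20 endothelium, 20 red cell, 20 immune, 20 nerve and 25 epithelium genes.

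limma 3.58.1 (R 4.3.3) held 4 group means over all arrays (18 residual and 4.34 prior degrees of freedom). The threshold was 0.05 after Benjamini-Hochberg adjustment over all 19050 genes. In all 6 comparisons were made: 3 of genotype (each sex and their average), 2 of sex (each genotype), and 1 of the genotype effect between the sexes. The comparisons share arrays. Exact permutation tests (SciPy 1.17.1) were two-sided. They were run only for members already called by limma on the same arrays, so they are no independent check. For Fn1 and Lum, whose groups did not overlap, the exact permutation p of 0.00433 is the lowest possible over 462 regroupings. No pair of arrays had over 0.0334% equal values, so each array was counted once. No scan date or slide was available as a batch. The number of arrays limits the precision. Promoter windows are from RefSeq on GRCm38.p6, and no genome build is named with the array values. Alternatives were quantile normalization, median centring, no or a stricter filter (75th percentile), averaging the probe sets of a gene, trend and robust options, only the groups compared, a replicate block, array weights, the median over members, and leaving out each array. Leaving out male control 6 and male knockout 5 together, lineage means over members passing the filter only, and lineage medians of the male comparison without male control 6, male knockout 3 or male knockout 5, were added after seeing the data. The programs were tested on simulated data.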

Additional observations from a re-analysis of the deposited data

Results flagged for a closer look

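In groups of 5 or 6 arrays, the highest or lowest value was taken to stand apart when its gap to the nearest other value was a large share of the group's range, by the critical values of Dixon's test. Of 156 groups of single genes 22 stood apart so, and of 180 groups with lineage means 27. The critical values are set for about 1 in 20 independent groups. These groups share arrays, and the lineage means average the same genes, so the counts cannot be set against that share. The same count was not made over all genes tested.

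Male control 6 held 11 of the 22 single genes, all high. In mesenchyme these were Vim at 7.88, Prrx1 at 5.15, Pdgfrb at 7.58 and Postn at 6.14. In smooth muscle they were Acta2 at 9.27, Actg2 at 6.65, Myh11 at 7.27, Cnn1 at 7.32 and Mylk at 6.83. In endothelium they were Pecam1 at 5.34 and Kdr at 5.39. The lineage means of the same array stood apart at 0.72 for mesenchyme, 1.00 for smooth muscle and 0.48 for endothelium.

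Male knockout 5 held 3, with Acta2 at 7.22, Actg2 at 6.02 and the complement gene C1qb at 6.95, and its smooth muscle mean stood apart at 0.22. Of the other arrays, 7 held 1 or 2 genes each and the rest held 0. Postn was high in male knockout 3 at 4.96 and Thy1 in male control 4 at 5.94, while Smtn was low in male control 1 at 8.12. In female control 3, Pdgfrb was high at 6.32 and Fcer1g at 6.07. Esam was high in female control 4 at 6.01. In female control 5, Hbb-y was high at 5.57 and the red cell mean at 0.22. Kdr was high in female knockout 5 at 4.48. All the single values are deposited log2 signals, and lineage means are deviations from the 22-array mean of each gene.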

How the results depend on the processing

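No called difference turned its sign under any alternative run. The count of members called stayed at 0 in the 4 genotype comparisons under all of them. Between the sexes in controls it was 2, and 1 with median centring, with a range of 1 to 2 when 1 array was left out. Between the sexes in knockouts it was 1, and 0 with the 75th percentile filter, which left 7 members and removed Lum. It was 2 with the replicate block and 2 without male control 6 and male knockout 5 together, with a range of 1 to 2 when 1 array was left out. The replicate block used the replicate number, which the labels do not tie to a litter: over 31 same-numbered pairs the correlation of deviations had a median of -0.028, with 4 pairs above 0.1. With the block, Dcn was also called in knockouts (-0.34). No other call among the members changed with the block. Median centring also moved the calls over all genes between control sexes from 623 higher and 699 lower to 584 and 363. Uncalled differences turned sign for 15 of 31 members in males and 15 in females under at least 1 alternative. Signals near the array median, as for Des, Hbb-y, Hba-x and Alas2, limit what could be seen in those genes.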
